A study of Mus musculus with 8 samples.

Results

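DNA methylation was measured at the start sites and in the bodies of 54 mouse genes of oxidative metabolism, out of 55450 genes in the GENCODE M21 annotation. The 54 genes are a list of respiratory chain, tricarboxylic acid (TCA) cycle and mitochondrial control genes of the kind usually counted as targets of the estrogen-related receptor α (ERRα). They were chosen by name and not by their methylation, though earlier results of these data were known. The samples were tumors of NIC-5231 cells, a mouse breast cancer line from an ErbB2-driven mammary tumor, grown in the mammary fat pad of immunodeficient NSG mice that were 5 to 7 weeks old when injected. Mice with palpable tumors received vehicle (saline with PEG and DMSO, labelled DMSO), C29, 5-azadC, or both drugs together (the combination), with C29 given at 10 mg/kg and 5-azadC at 1 mg/kg, by intraperitoneal injection every 2 days, with 5 mice in each group. C29 is a small molecule that inhibits ERRα, and 5-azadC (5-aza-2'-deoxycytidine, decitabine) is incorporated into DNA and traps DNA methyltransferases. Each group has 2 libraries of reduced representation bisulfite sequencing (RRBS), each from tumor DNA pooled from 2 mice. All 4 groups come from 1 cell line, and because tumor and host are both mouse, DNA of host cells in the tumor cannot be told apart from tumor DNA. Nothing states whether pools shared a mouse, so tests that use the spread between libraries measure only the spread between these libraries, and the logistic test used for calls measures counting error alone.

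Oxidative metabolism passes electrons from the TCA cycle and fatty acid oxidation along complexes I to IV of the mitochondrial inner membrane to oxygen. ERRα is an orphan nuclear receptor that, with its coactivators of the PGC-1 family, switches on many nuclear genes of this pathway, and breast tumors with active ERRα rely on it. RRBS cuts DNA at CCGG, which enriches for CpG-rich start sites, and bisulfite conversion then tells methylated from unmethylated cytosines of CG dinucleotides. Dense CpG methylation at a start site usually accompanies a silent gene, whereas methylation inside gene bodies is common in transcribed genes.

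The sequences that the results turn on are given first, on the strand of the gene and read 5′ to 3′ from the RefSeq GRCm38.p6 sequence. Capitals mark the CG dinucleotides whose methylation was measured, and distances are counted in bases from the first start site of the gene. Cpt1b is shown because it was the only member methylated at its first start site, at bases +287 to +307 in an untranslated exon. Acadm is shown at 2 places, 1 unmethylated upstream of its start and 1 methylated in a coding exon. Idh3a is shown for a lone methylated CG before an otherwise unmethylated start, and Cycs for a pair of upstream CGs that differed between replicates. Sdhc, Idh3b and Ndufs7 are each shown for a single CG inside the gene whose mean was lower in both groups with 5-azadC than in vehicle. Cycs and the single CGs of Acadm, Idh3a and Ndufs7 were picked after their values were seen.
Cpt1b, chr15:89425553-89425579, minus strand, 4 measured CGs: ccaCGagggttCGgtggcagCGgCGgt
Acadm upstream, chr3:153944869-153945021, minus strand, 8 measured CGs: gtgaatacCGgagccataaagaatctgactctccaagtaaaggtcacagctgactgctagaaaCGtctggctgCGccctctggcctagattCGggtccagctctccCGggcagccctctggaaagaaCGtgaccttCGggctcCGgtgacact
Acadm coding exon, chr3:153941889-153941951, minus strand, 4 measured CGs: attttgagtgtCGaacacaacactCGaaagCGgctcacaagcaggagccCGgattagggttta
Idh3a upstream, chr9:54586030-54586329, plus strand, 8 of 12 CGs measured: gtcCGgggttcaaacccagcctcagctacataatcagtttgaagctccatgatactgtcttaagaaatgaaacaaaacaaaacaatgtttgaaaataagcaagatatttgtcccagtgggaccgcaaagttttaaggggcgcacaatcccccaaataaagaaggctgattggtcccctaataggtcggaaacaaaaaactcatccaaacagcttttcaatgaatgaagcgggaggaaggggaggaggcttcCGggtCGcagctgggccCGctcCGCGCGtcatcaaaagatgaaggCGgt
Cycs upstream, chr6:50567350-50567398, minus strand, 2 measured CGs: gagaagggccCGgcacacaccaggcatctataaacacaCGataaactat
Sdhc intron, chr1:171143521-171143561, minus strand, 1 measured CG: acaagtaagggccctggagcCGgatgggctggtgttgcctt
Idh3b exon of a non-coding transcript, chr2:130283393-130283421, minus strand, 1 measured CG: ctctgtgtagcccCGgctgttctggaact
Ndufs7 coding exon, chr10:80253716-80253744, plus strand, 1 of 2 CGs measured: atcttccccgaagcCGggctgagtatgtg

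The 8 libraries held between 51359825 and 81299065 reads over CG cytosines, with a median of 21 to 30 reads per cytosine. The unmethylated spike-in control read 0.216% to 0.329% methylated and the methylated control 97.5% to 98.3%. In all, 567907 cytosines had at least 10 reads in every library, and only these were used. A gene's methylation level is the percentage of methylated reads among all reads of its cytosines. It was taken either in the promoter windows (within 1000 bases of any annotated start site) or in the rest of the gene (the gene body). Where the cytosines of a gene differ in methylation, its level also shifts with their shares of the reads. Levels are given as mean ± SD of the 2 libraries of a group. Intervals for single libraries are 95% Wilson intervals and cover counting error only, since copies made by PCR were not marked.

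Promoter windows were measured in 49 of the 54 genes, at 1239 cytosines, with 2 to 83 cytosines per gene and a median of 19. The windows of Idh3b, Pdk4 (an inhibitor of pyruvate dehydrogenase), Ndufa5, Sdha (the catalytic subunit of complex II) and Ndufa2 held no cytosine with enough reads. The 1239 cytosines fell into 189 runs on the same strand with gaps of at most 100 bases, so neighbouring cytosines were often read by the same molecules. For 22 of the 54 genes another gene also starts within the window, such as Atp5j beside Gabpa and Psmd13 beside Sirt3, and these windows describe both genes.

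The start sites of oxidative metabolism genes were almost free of methylation in tumors of every group. In vehicle, 40 of the 49 genes had a mean below 5% (81.6%, beside 53.9% of the 14330 protein-coding genes measured) and 33 had a mean below 1% (67.3% beside 41.1%). The median gene stood at 0.184% in vehicle, 0.288% in C29, 0.175% in 5-azadC and 0.250% in the combination. The median of all protein-coding genes was 2.61%, 2.53%, 2.19% and 2.27% in the same groups. Levels stayed below 5% in all 8 libraries in 36 of the 49 genes and below 1% in 14. Only Cpt1b, 1 of 49, exceeded 80% in vehicle, a level reached by 6.19% of protein-coding genes.

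**Figure D1:**
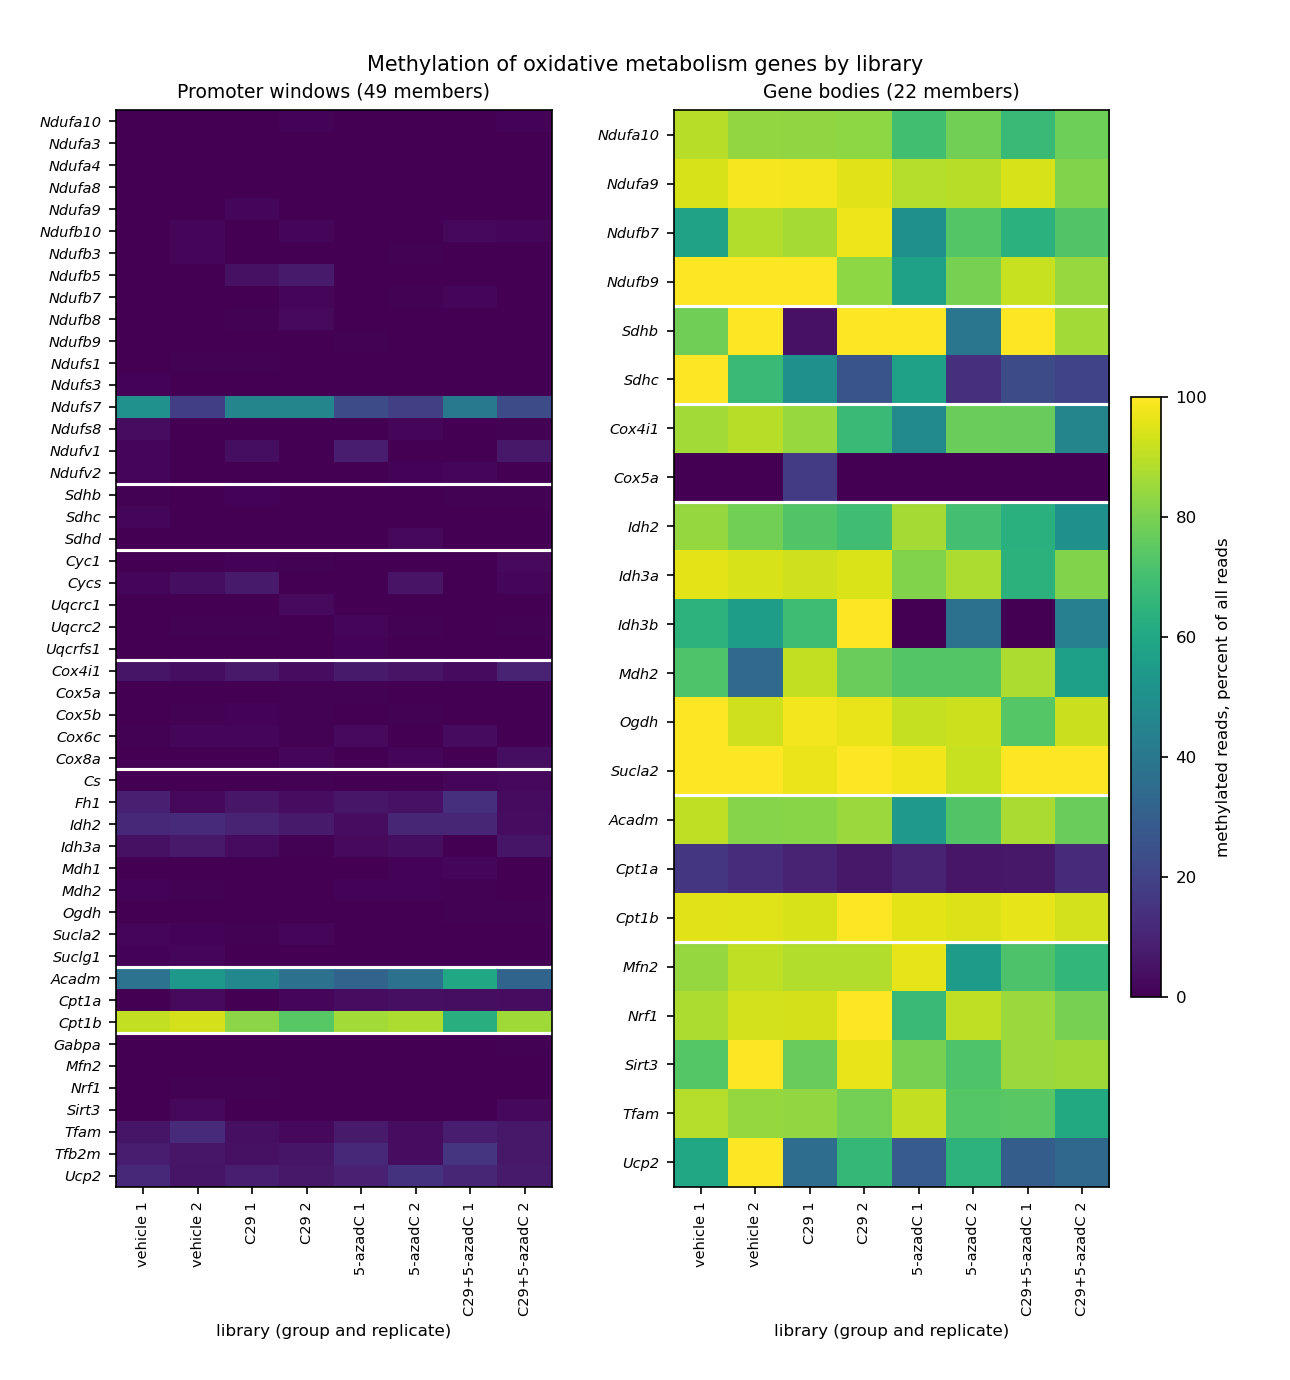
Methylation of each oxidative metabolism gene (one line per gene, grouped by function with white lines between groups) in each of the 8 libraries (columns, by group and replicate), for promoter windows and gene bodies, as percent of reads methylated by color. Promoter windows are near 0 in 36 of 49 genes in every library and high in Cpt1b, while 20 of the 22 gene bodies measured had a vehicle mean above 50%.

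Most methylation that was counted in the promoter windows lay away from the first start. Of the 1188 cytosines within 1000 bases of the first start, 96.4% were below 5% in vehicle, and their mean ranged from 0.976% to 1.46% over the 8 libraries, or from 0.396% to 0.668% without Cpt1b. The other 51 cytosines, next to later start sites inside 10 genes, averaged 32.3% to 42.0%, and 41.2% of them exceeded 50% in vehicle. With windows around the first start alone, 47 of 49 genes lay below 5% in vehicle (95.9%, beside 67.9% of protein-coding genes), the exceptions being Cpt1b and Idh3a. By distance, the mean in vehicle was 6.06% in the farthest 500 of the 1000 bases upstream (27 cytosines), 0.544% in the next 500 bases, 1.23% in the first 500 bases of the gene and 3.65% in the following 500. It was 28.97% between 2000 and 5000 bases and 80.1% beyond. Protein-coding genes as a whole showed 13.7%, 5.69%, 6.18% and 9.53% in the same 4 bins near the start, and 39.5% and 58.9% in the same 2 bins inside the gene. In the last bin of the members, means were 80.1% in vehicle, 79.4% in C29, 70.9% in 5-azadC and 70.3% in the combination.

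**Figure D2:**
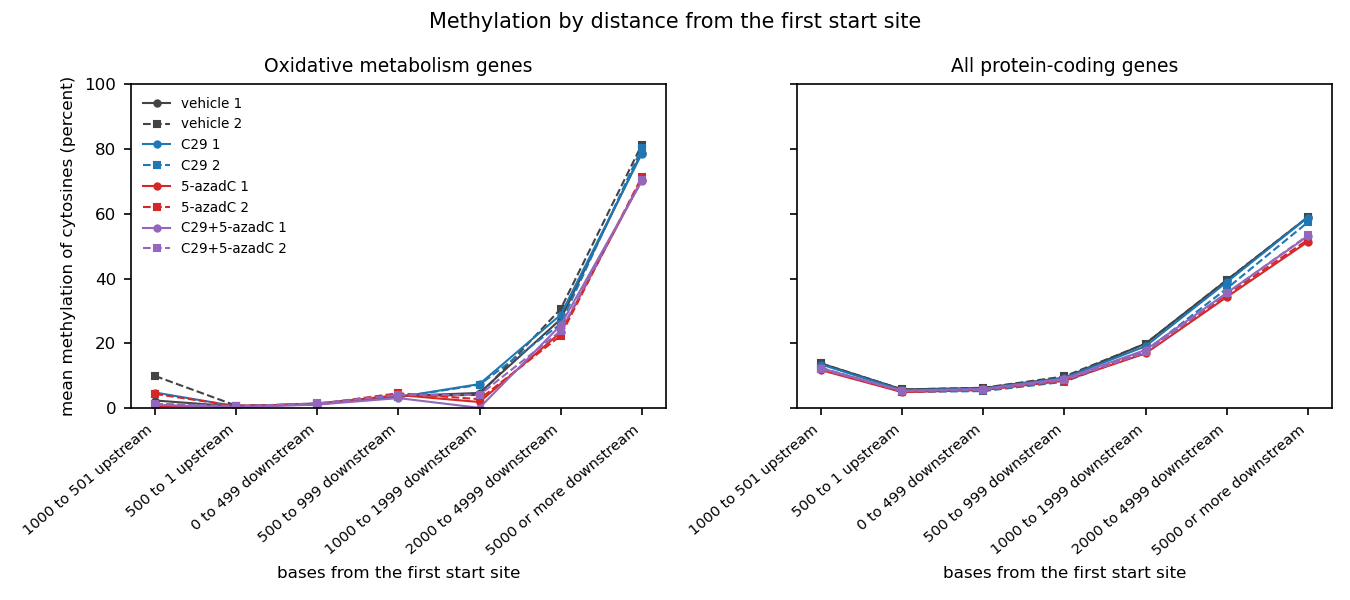
Mean methylation of cytosines (percent, vertical axis) by distance from the first start site (bases, horizontal axis) in the oxidative metabolism genes and in all protein-coding genes, with one line per library, colored by group. The lines lie together near the start, with group means of 0.346% to 0.577% in the 500 bases upstream of the members, and part in the last bin, where the 4 libraries with 5-azadC lie lower.

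The DNA around these starts was rich in CpG. Over 500 bases on either side of the first start, the observed-to-expected CpG ratio had a median of 0.735 in the 54 genes and exceeded 0.6 in 45 of them (83.3%), beside a median of 0.552 and 46.0% for protein-coding genes. The lowest ratios of the list belonged to Cpt1b (0.339) and Cpt1a (0.444). In the RefSeq promoter table (250 bases before to 50 after a start), 44 of the 54 genes were found. The ERR response element TCAAGGTCA, searched on both strands, lay in 1 of these 44 (2.27%), beside 0.466% of the 27025 genes and 0.423% of the 32851 promoters in the table. That match was in Sdhd, the membrane anchor of complex II, shown here because it is the one member promoter with the element (chr9:50603800-50604099, minus strand, element in capitals, read on the opposite strand, 36 bases after the start of the table).
Sdhd: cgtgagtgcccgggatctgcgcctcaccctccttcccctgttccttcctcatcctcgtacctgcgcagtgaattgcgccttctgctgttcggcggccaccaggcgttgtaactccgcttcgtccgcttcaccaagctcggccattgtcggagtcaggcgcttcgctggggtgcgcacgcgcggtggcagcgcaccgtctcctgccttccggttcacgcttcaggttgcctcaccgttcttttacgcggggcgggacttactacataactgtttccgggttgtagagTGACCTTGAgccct
In this stretch 22 cytosines were measured, 20 were at 0 in every library, and the highest value of any library was 18.6%. GCATGCGC, the core bound by nuclear respiratory factor 1, lay in 7 of the 44 genes (15.9%, beside 3.05% of genes in the table), namely Acadm, Cycs, Ndufa8, Ogdh, Sdhb, Tfb2m and Uqcrc1. CCGGAAGT, the core bound by GABP and other ETS factors, lay in 4 (9.09%, beside 4.31%), namely Cox8a, Ndufs3, Sirt3 and Tfam. A match is a description of the letters only.

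Complex I oxidizes NADH and feeds its electrons into the chain. Of its 19 subunits on the list 17 were measured, and 14 stayed below 5% in all 8 libraries. Ndufa4, a small subunit first assigned to complex I, had no methylated read at 27 cytosines in any library, with 387 to 1637 reads each, which allows a level of up to 0.183% to 0.775%. Ndufb5, an accessory subunit, was at 0 in 6 libraries and at 4.39% and 7.32% in the C29 libraries, but rests on 2 cytosines.

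Ndufs7, which carries an iron-sulfur cluster of complex I (chr10:80249121-80256794), was the exception of the complex, at 50.5% and 18.7% in vehicle, 45.7% and 46.1% in C29, 23.0% and 18.9% in 5-azadC, and 40.4% and 22.9% in the combination. Its libraries overlapped between groups, and the vehicle replicates lay farther apart than any pair of group means. The level came from the 2 cytosines beside a later start, in coding exons at +4609 and +4657. At +4609 values were 84.1% and 100% in vehicle, 71.6% and 65.4% in C29, 82.1% and 12.5% in 5-azadC, and 17.4% and 31.7% in the combination. The 2 cytosines near the first start were at 0 in vehicle, C29 and combination libraries and reached at most 10.4% in 5-azadC. In vehicle these 2 gave 66 of the 204 reads of replicate 1 and 122 of the 150 reads of replicate 2. The lower level of vehicle replicate 2 therefore follows mainly their share of the reads. At +4609 both C29 libraries lay below both vehicle libraries.

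Complexes II to IV were low as well. The 3 measured subunits of complex II, which links the TCA cycle to the chain by oxidizing succinate, stayed below 5% in all libraries, as did 4 of the 5 genes of complex III and cytochrome c. Cycs, the electron carrier cytochrome c (11 cytosines), was at 1.66% and 3.85% in vehicle, 7.36% and 0.148% in C29, 0 and 5.35% in 5-azadC, and 0 and 1.32% in the combination. Replicates of Cycs differed more than groups did. At its CG at -850 values were 40% and 95.2% in vehicle, 95.0% and 0 in C29, 0 and 67.2% in 5-azadC, and 0 in both combination libraries. Of the 5 subunits of complex IV, the terminal oxidase, Cox4i1 alone passed 5%, with 2.97% to 9.54% over the 8 libraries. Around its first start no cytosine exceeded 19.1%, and its methylated CGs lay beside a later start in an intron.

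Genes through which fuel enters the pathway held the highest levels. Cpt1b, the muscle-type carnitine palmitoyltransferase that imports fatty acids into mitochondria (chr15:89416405-89425863, minus strand, 11 cytosines), read 90.6% and 93.4% in vehicle and 82.4% and 74.0% in C29. It read 86.2% and 87.5% in 5-azadC and 62.7% and 85.8% in the combination. On these pooled reads both C29 libraries lay below both vehicle libraries, and both combination libraries lay below both 5-azadC libraries, one of them by a small margin. Intervals were 88.2% to 92.6% and 91.2% to 95.1% for the vehicle libraries, 78.9% to 85.5% and 69.8% to 77.8% for C29, and 58.5% to 66.7% and 81.7% to 89.1% for the combination. The libraries differed most at a few CGs: +155 read 90.2% and 87.3% in vehicle, 73.0% and 40.3% in C29, 51.9% and 60.4% in 5-azadC, and 47.2% and 88.9% in the combination. In the printed stretch around +300 most values were 100%, and the lowest was 43.4% in combination replicate 1. Of the 11 CGs, 6 exceeded 50% in every library.

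Acadm, the medium-chain acyl-CoA dehydrogenase of fatty acid oxidation (chr3:153922357-153944632, minus strand, 23 cytosines), read 38.0% and 53.4% in vehicle, 46.6% and 37.2% in C29, 31.7% and 37.3% in 5-azadC, and 59.9% and 32.3% in the combination. The groups overlapped, and the combination libraries marked both the highest and nearly the lowest value. Around the first start 10 of the 13 CGs were at 0 in every library and the highest value was 25.7%, in C29 replicate 2 at -245. The 10 CGs beside later starts carried the methylation, among them the printed coding exon from +2693 to +2731. There, +2731 read 100% in both vehicle libraries, 59.1% and 40.5% in C29, 100% and 46.7% in 5-azadC, and 80.5% and 0 in the combination.

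**Figure D3:**
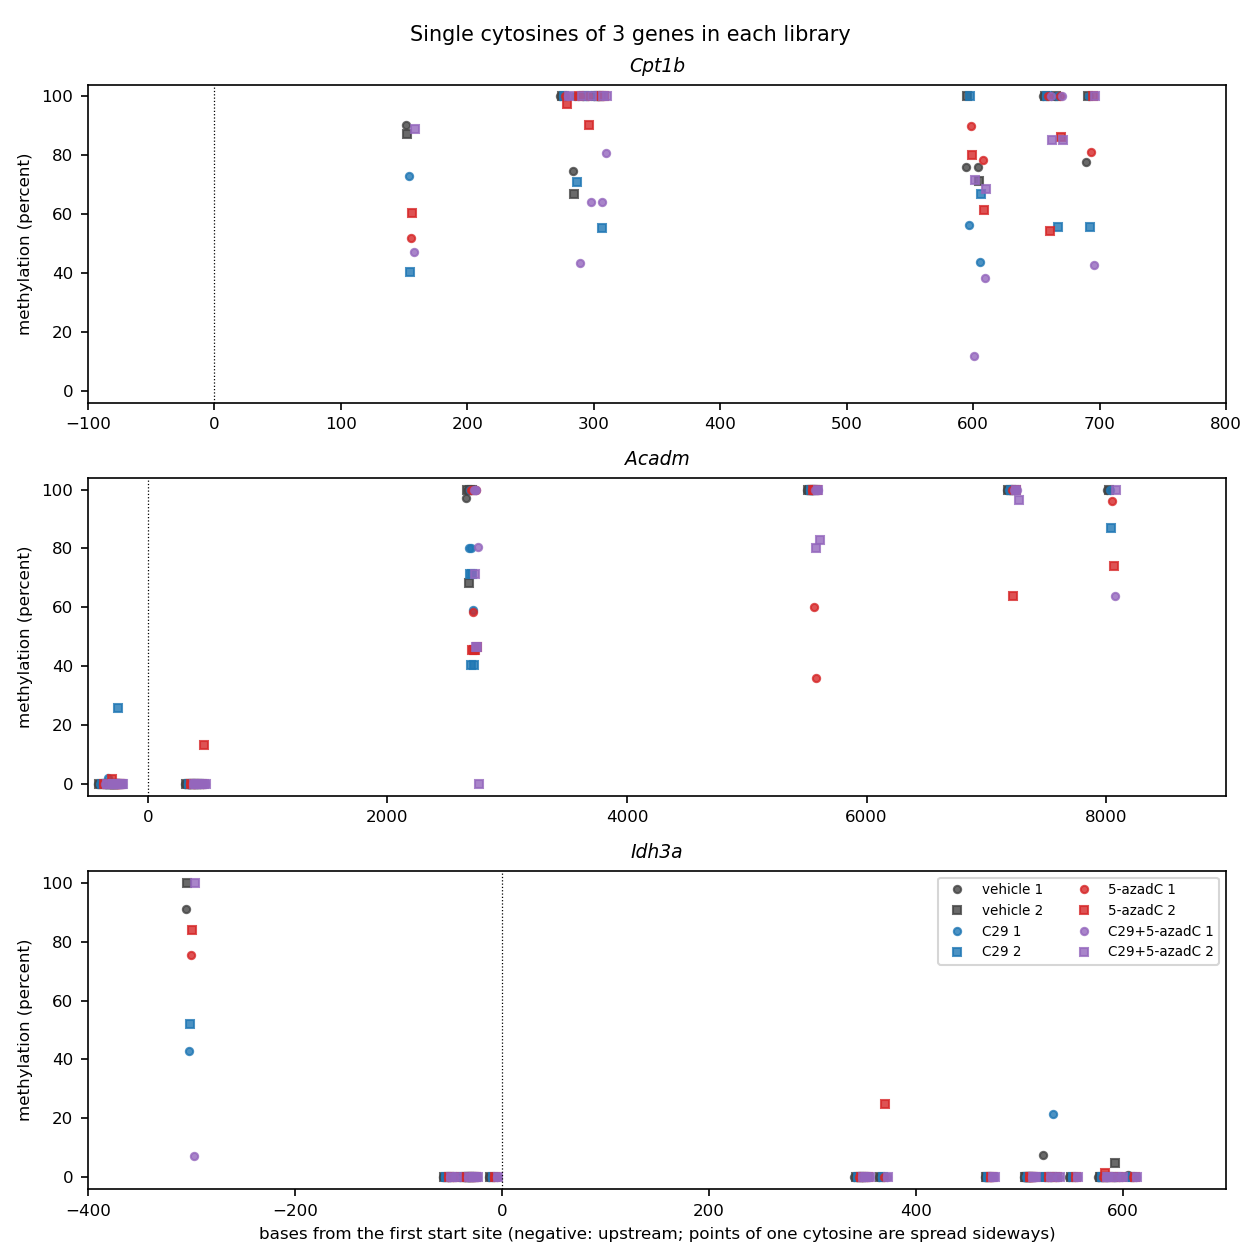
Methylation of single cytosines (percent, vertical axis) against distance from the first start site (bases, horizontal axis) in Cpt1b, Acadm and Idh3a, one point per cytosine and library, colored by group (circles replicate 1, squares replicate 2). Cpt1b is methylated right after its start, Acadm from +2693 on but not upstream, and Idh3a at one CG upstream, at 7.32% to 100%.

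Cpt1a, the liver-type counterpart of Cpt1b (chr19:3322334-3385733, 15 cytosines), read 0 and 2.64% in vehicle, 0 and 1.36% in C29, 3.42% and 4.06% in 5-azadC, and 3.58% and 3.37% in the combination. All 4 libraries with 5-azadC lay above the 4 without, though all 8 stayed below 5%.

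In the TCA cycle 6 of the 9 measured genes stayed below 5% in every library. Idh2, the mitochondrial NADP-linked isocitrate dehydrogenase (chr7:80094846-80115392, minus strand, 45 cytosines), read 11.6% and 11.8% in vehicle, 9.66% and 7.22% in C29, 3.38% and 10.6% in 5-azadC, and 10.6% and 3.22% in the combination. Both C29 libraries lay below both vehicle libraries, and the other 2 groups spread around C29. The level rests on 2 CGs beside a later start at 61.9% to 100%, while 38 of the 43 CGs around the first start stayed below 5% in every library. Fh1, fumarate hydratase, likewise had 15 CGs at 0 in every library around its first start and 1 intronic CG at 78.1% to 100% beside a later one. Ogdh, Cs and Sucla2 were low throughout: Cs, the citrate synthase that opens the cycle, read at most 0.760% in the 6 libraries other than the combination, which read 1.24% and 1.97%.

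Idh3a, a catalytic subunit of the NAD-linked isocitrate dehydrogenase (chr9:54586334-54604661, 26 cytosines), read 4.61% and 6.67% in vehicle, 2.78% and 0.727% in C29, 2.66% and 3.53% in 5-azadC, and 0.375% and 5.59% in the combination. Both C29 libraries lay below both vehicle libraries, while the combination libraries lay on either side of the 5-azadC libraries. Of the 26 CGs 22 stayed below 5%, and one at -301 read 91.1% and 100% in vehicle, 42.9% and 52.2% in C29, 75.4% and 83.9% in 5-azadC, and 7.32% and 100% in the combination.

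Sucla2, a subunit of succinyl-CoA synthetase (chr14:73525319-73596142, 22 cytosines), read 1.37% and 1.13% in vehicle and 0.729% and 1.79% in C29, but 0 and 0.0648% in 5-azadC and 0 in both combination libraries. The 4 libraries with 5-azadC lay below the 4 without. In those 4 without the drug, the methylated reads came from 5 CGs, none of which was methylated in more than 2 of the 8 libraries.

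Of the 7 genes that control mitochondria, 4 stayed below 5% in every library. Tfam, which packages and transcribes mitochondrial DNA (chr10:71225464-71238280, minus strand, 47 cytosines), read 5.54% and 12.3% in vehicle, 4.12% and 1.98% in C29, 7.18% and 3.51% in 5-azadC, and 8.15% and 6.28% in the combination. Both C29 libraries lay below all other libraries but one, 5-azadC replicate 2. Its 2 CGs beside a later start read 66.4% to 100%, and around the first start 35 of 45 CGs stayed below 5%. Tfb2m, a mitochondrial transcription factor, read 7.89% and 5.94% in vehicle, 4.60% and 5.59% in C29, 11.3% and 3.22% in 5-azadC, and 15.1% and 6.57% in the combination. Its C29 libraries also lay below its vehicle libraries, by a small margin, and its combination libraries lay above them. Ucp2, an uncoupling protein of the inner membrane, spanned 5.50% to 14.6%, and its C29 libraries lay between its vehicle libraries.

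The transcription factors Nrf1 and Gabpa, which drive nuclear genes for mitochondria, were below 1% in every library. Gabpa (chr16:84834925-84863779, 57 cytosines) read 0.134% and 0.131% in vehicle, 0 and 0.104% in C29, 0.348% and 0.229% in 5-azadC, and 0.322% and 0.443% in the combination, so the 4 libraries with 5-azadC lay above the 4 without, by a fraction of a percent. Sirt3, a mitochondrial deacetylase, was at 0 or 0.113% in 6 libraries and at 2.30% and 2.16% in one vehicle and one combination library.

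The first comparison, C29 with vehicle, asks whether inhibiting ERRα moved methylation at these starts. A gene was called when its pooled reads differed at q below 0.01 in a logistic likelihood-ratio test, with Benjamini-Hochberg adjustment over all genes, and by at least 25 points. No member was called in C29 against vehicle (background over all 20471 genes 3.4%), in the combination against 5-azadC (4.04%), in 5-azadC against vehicle (4.51%) or in the combination against vehicle (4.67%). By q alone, 20, 21, 22 and 24 of the 49 passed, and 25, 25, 28 and 30 had an unadjusted p under 0.05. The test takes each read as independent, and its q passed in 48.99%, 47.1%, 52.5% and 50.1% of all genes. Few genes so near zero were called anywhere: of the 9704 genes below 5% in vehicle, 0.423%, 0.258%, 0.309% and 0.371% were called in the same 4 comparisons. Only 3 members, Cpt1b, Acadm and Ndufs7, lay at 25% or more in vehicle and could fall by 25 points. Of the 7272 genes at that level 7.85%, 10.1%, 11.6% and 11.7% were called. The last 2 comparisons and the first share the vehicle libraries. With some single libraries left out a member was called. A group then held 1 library and no replicate, so those calls are not counted here.

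Most members differed little between groups. On pooled reads, groups differed by less than 1 point in 36, 35, 36 and 30 of the 49 genes in the 4 comparisons (73.5%, 71.4%, 73.5% and 61.2%), beside 43.0%, 43.0%, 41.9% and 41.7% of all genes. The median difference was 0 in C29 against vehicle and in the combination against 5-azadC, and -0.0168 points in 5-azadC against vehicle. With a test that adds the spread between replicates (an F test with overdispersion), 1, 2, 2 and 3 members passed an unadjusted p of 0.05 and 0 passed after adjustment (with 2 libraries a side it did not recover shifts built into simulated data, so its 0 says little). Of all genes, 4.44%, 3.96%, 5.30% and 5.00% passed that unadjusted p in the F test. edgeR's quasi-likelihood test called 0 members, with 2, 1, 2 and 3 members at an unadjusted p under 0.05. Its planned fit, used here, recovered 0 of 200 shifts simulated in promoters, so this 0 says little either.

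Cpt1b showed the largest difference of group means in the first comparison. It stood at 92.01% ± 1.94 in vehicle and 78.2% ± 5.98 in C29 (n = 2 libraries each), a difference of -13.61 points on pooled reads, with a q of 4.18e-19 in the logistic test but an adjusted q of 0.874 in the overdispersion F test. Against 5-azadC alone (86.9% ± 0.937) the combination stood at 74.2% ± 16.3, a difference of -15.26 points on pooled reads, with a q of 3.05e-18 in the logistic test. Here the spread of the combination libraries exceeded the difference. Over all 8 libraries, the 4 with C29 averaged 76.2% ± 10.3 and the 4 without 89.4% ± 3.22 and did not overlap, with an adjusted q of 0.72 in the F test. These levels pool the reads of 11 CGs and shift with each CG's share of the reads. With equal weight for each CG the libraries with and without C29 overlapped, as C29 replicate 1 lay above 5-azadC replicate 2. The difference between C29 and vehicle was then smaller than the gap between the C29 libraries. With 2 against 2 an exact permutation test cannot go below 0.33.

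Among the other members with the largest differences, Idh2 and Idh3a differed in C29 against vehicle by more than their larger replicate gap, though by less than 5 points. The pooled levels of Idh2 and Tfam also shift with the share of reads from the 2 CGs that each has beside a later start. Their differences are therefore not read as changes in methylation alone. In C29 against vehicle, Tfam stood at 3.05% ± 1.52 against 8.95% ± 4.81, Idh2 at 8.44% ± 1.72 against 11.7% ± 0.131, Idh3a at 1.76% ± 1.45 against 5.64% ± 1.46, and Acadm at 41.9% ± 6.61 against 45.7% ± 10.9 (n = 2 each). In the combination against 5-azadC, Acadm stood at 46.1% ± 19.5 against 34.5% ± 3.95. Tfb2m, Ucp2 and Fh1 had overlapping libraries there, with Fh1 at 13.6% and 3.01% against 6.02% and 4.92%. All methylated reads of Fh1 came from 1 CG, at 78.1% to 100% in every library. The pooled level of Fh1 therefore follows mainly that CG's share of the reads. Ndufs7 stood at 45.9% ± 0.271 in C29 against 34.6% ± 22.5 in vehicle. It stood at 31.6% ± 12.4 in the combination against 20.9% ± 2.95 in 5-azadC. These pooled levels also shift with the share of reads from its nearly unmethylated first-start CGs. The higher level in C29 is therefore not read as higher methylation. At its CG at +4609 both C29 libraries lay below both vehicle libraries, and the combination libraries lay between the 5-azadC libraries. On levels pooled over CGs, a difference of group means of at least 5 points that exceeded the larger replicate gap was found for 2 members in C29 against vehicle, Cpt1b and Ndufb5, for 0 in the combination against 5-azadC, for Cpt1b in 5-azadC against vehicle and for 0 in the combination against vehicle.

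**Figure D4:**
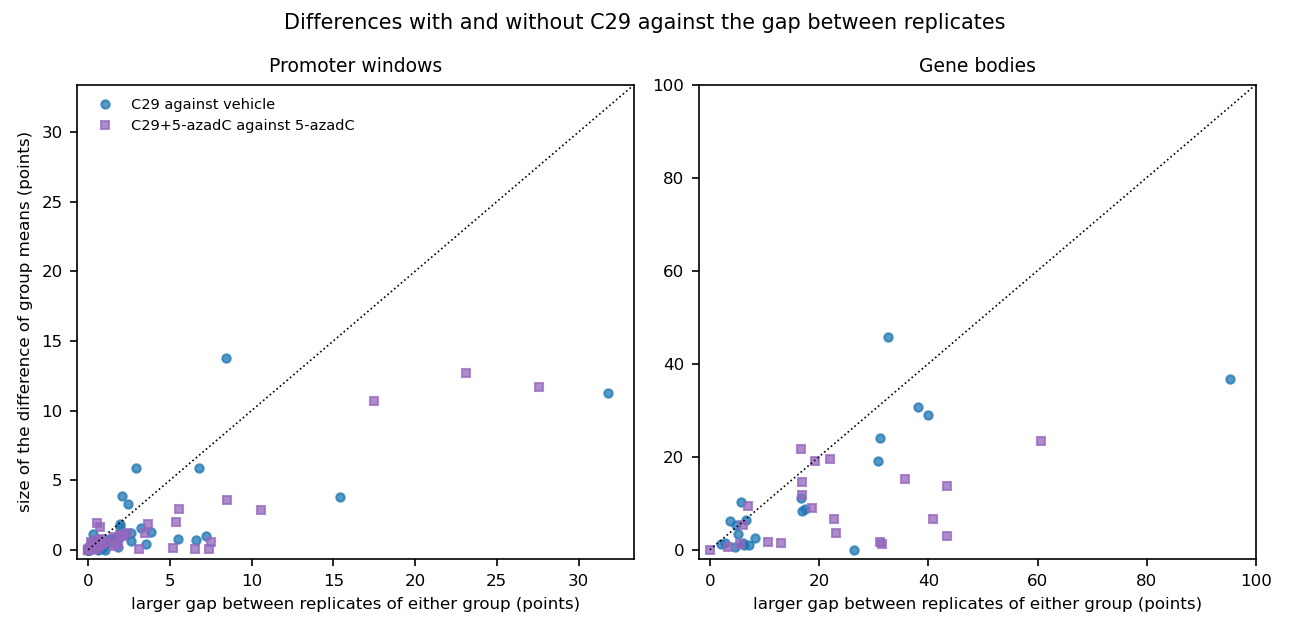
Size of the difference of group means (points, vertical axis) against the larger gap between replicates of either group (points, horizontal axis) for each member, in C29 against vehicle and in the combination against 5-azadC, in promoter windows and gene bodies. Points above the dotted line of equality differ by more than their replicates do. In promoter windows Cpt1b is the member farthest above the line in C29 against vehicle.

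Across all 8 libraries, members whose 4 libraries with a drug did not overlap the 4 without numbered 1 lower with 5-azadC (Sucla2, background 3.08%), 2 higher with 5-azadC (Gabpa and Cpt1a, background 0.703%) and 1 with C29 (Cpt1b, background 2.12%). For Cpt1b this holds on pooled reads and not with equal weight for each CG. Sucla2 stood at 0.0162% ± 0.0324 with 5-azadC and 1.25% ± 0.442 without, Gabpa at 0.336% ± 0.0882 and 0.0922% ± 0.0629, and Cpt1a at 3.61% ± 0.314 and 0.998% ± 1.27 (n = 4 each). Adjusted over all genes, their q in the F test were 0.237, 0.402 and 0.475. An unadjusted p below 0.05 in the F test was reached by 6 of 49 members for 5-azadC (12.2%, background 9.61%) and by 8 for C29 (16.3%, background 6.71%), and no promoter of any gene passed an adjusted q of 0.05. At the larger simulated spread between libraries this test recovered 36 of 200 promoter shifts, so the lack of passing genes says little if libraries varied that much. Whether C29 acted differently with and without 5-azadC was tested as an interaction in the same model: 1 member (2.04%) had an unadjusted p below 0.05, beside 5.05% of all genes, and 0 passed after adjustment. The count apart by C29 was 4 without vehicle replicate 2, 3 without C29 replicate 1, 5-azadC replicate 1 or combination replicate 1, and 2 without vehicle replicate 1. Leaving out a library can only keep or raise such a count, over all genes as well. The background of 2.12% is therefore not one for these counts. With at least 20 reads per cytosine the count apart was 0 for either drug.

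Gene bodies were measured in 22 members at 159 cytosines, which fell into 56 runs, with 1 to 51 cytosines and a median of 5 per gene. Most of these bodies were heavily methylated, with medians of 88.3% ± 2.19 in vehicle, 85.5% ± 1.84 in C29, 72.3% ± 1.34 in 5-azadC and 74.6% ± 0.773 in the combination. All 15510 genes measured had medians of 76.7%, 75.8%, 64.7% and 66.9%. The 4 complex I genes measured had a vehicle median of 91.4%, the 6 TCA cycle genes 88.1%, the 3 fuel entry genes 86.2%, the 5 mitochondrial control genes 86.8% and the 2 complex II genes 86.4%, while no gene of complex III was measured. Low bodies were those of Cpt1a, at 14.3% in vehicle, and of Cox5a of complex IV (2 CGs), at 0 in 7 libraries and 17.3% in C29 replicate 1. The other complex IV body, Cox4i1, stood at 87.6% in vehicle. Only 12 of the 22 bodies held 5 cytosines or more, and replicates differed by 5 points or more in 13, 12, 16 and 16 of the 22 in the 4 groups.

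In C29 against vehicle 3 of the 22 bodies were called, 2 lower and 1 higher (background 5.31%), and none of these 3 had more than 3 cytosines. The count rose with vehicle replicate 1 left out, which left 1 vehicle library and no replicate. With at least 20 reads per cytosine the count was 0. In each of the 4 comparisons edgeR's quasi-likelihood test called 0, with 0, 1, 4 and 2 members at an unadjusted p under 0.05. Sdhc, the membrane subunit of complex II that binds ubiquinone (chr1:171127165-171150603, minus strand), has 1 measured CG in an intron at +7062 (chr1:171143541). It read 100% and 67.3% in vehicle, 50% and 26.0% in C29, 57.1% and 13.6% in 5-azadC, and 23.3% and 20% in the combination, on 15 to 66 reads. Both vehicle libraries lay above all others. Sdhc fell by 37.98 points in C29 with a q of 5.79e-07 in the logistic test, and its adjusted q in the overdispersion F test was 0.917.

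Ucp2 has 3 body CGs in an untranslated exon, which read 60% and 100% in vehicle, 35.6% and 66.7% in C29, 28.9% and 64.6% in 5-azadC, and 29.6% and 33.3% in the combination. It fell by 25.33 points in C29 (logistic q 0.0019), with overlapping libraries. Mdh2, the mitochondrial malate dehydrogenase, has 2 body CGs, which read 72.3% and 34.1% in vehicle, 90.8% and 77.1% in C29, 73.1% and 73.4% in 5-azadC, and 87.8% and 56.2% in the combination. It rose by 27.94 points in C29 (logistic q 1.22e-09), and the vehicle libraries lay farther apart from each other than the group means did. At its CG at +5716 the vehicle libraries read 100% and 0.

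No body with 5 cytosines or more was called in C29 against vehicle. The largest difference among them was in Ndufb7, an accessory subunit of complex I (5 CGs), which read 57.5% and 88.3% in vehicle, 86.5% and 97.5% in C29, 50.3% and 73.1% in 5-azadC, and 63.9% and 72.9% in the combination. It stood 15.82 points higher in C29 than in vehicle on pooled reads, with overlapping libraries and an adjusted q of 0.928 in the overdispersion F test. Idh2 (5 intronic CGs) read 84.2% and 78.6% in vehicle and 72.7% and 69.4% in C29, and then 86.6% and 69.9% in 5-azadC against 63.3% and 50% in the combination. In both pairs the libraries with C29 lay below those without. Idh2 stood at 71.0% ± 2.34 in C29 against 81.4% ± 3.98 in vehicle, and at 56.7% ± 9.43 in the combination against 78.3% ± 11.8 in 5-azadC (n = 2 each). Over all 8 libraries the 4 with C29 averaged 63.8% ± 10.0 against 79.8% ± 7.40, and they overlapped (p = 0.0571, two-sided exact permutation test). Cpt1a (51 CGs, 41 of them below 5% in every library) stood at 8.13% ± 2.57 in C29 against 14.3% ± 2.22 in vehicle. Tfam (6 CGs) read 83.6% and 78.9% in C29 against 88.9% and 84.1% in vehicle, and 74.6% and 60.6% in the combination against 90.6% and 73.7% in 5-azadC. A difference over the larger replicate gap, of 5 points or more, was found for Cpt1a, Idh2, Sdhc and Tfam.

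In the combination against 5-azadC no body of the 22 was called (background 7.15%). In the logistic test 10 had an unadjusted p under 0.05 (45.5%, beside 64.5% of all genes). In the overdispersion F test 0 did, beside 4.69% of all genes. The largest differences on pooled reads were -19.39 points in Ucp2, -18.34 in Idh2, 16.34 in Acadm, 15.79 in Ndufb9 and -13.83 in Tfam. Acadm (7 CGs) read 53.6% and 72.9% in 5-azadC and 87.3% and 77.3% in the combination. Only Idh2 and Sirt3 differed by more than their larger replicate gap and by 5 points. Sirt3 (6 CGs) read 79.7% and 72.6% in 5-azadC and 85.2% and 85.9% in the combination, with 73.6% and 100% in vehicle. The median difference of the members was -0.359 points, beside 1.40 for all genes, and -1.37 points in C29 against vehicle, beside -0.232. With some single libraries left out members were called. A group then held 1 library and no replicate, so those counts are not given.

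With 5-azadC most of these bodies were lower, by a median near that of all genes. In 5-azadC against vehicle 20 of 22 were lower, with a median of -9.24 points beside -8.42 over all genes, and in the combination against vehicle the median was -9.77 beside -6.45. Called were 3 of 22 in the first (Sdhc, Idh3b and Ndufb9, background 9.67%) and 4 in the second (Sdhc, Idh3b, Ucp2 and Cox4i1, background 9.01%), every one lower. The first count rose with vehicle replicate 1 or 5-azadC replicate 2 left out, which left 1 library in a group. With at least 20 reads per cytosine the counts were 1 and 0. Idh3b, a regulatory subunit of the NAD-linked isocitrate dehydrogenase, has 1 CG, read 17 to 45 times. It read 64.7% and 56.1% in vehicle, 68.9% and 100% in C29, 0 and 37.5% in 5-azadC, and 0 and 43.5% in the combination. Sdhc fell by 47.08 points in 5-azadC and decreased by 54.96 in the combination.

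Ndufb9 (3 CGs), a complex I subunit, read 99.7% and 100% in vehicle, 100% and 83.1% in C29, 57.4% and 79.4% in 5-azadC, and 91.4% and 84.4% in the combination. It fell by 27.15 points in 5-azadC (logistic q 2.08e-49, overdispersion F test q 0.435). Cox4i1 (3 intronic CGs) read 85.99% and 89.1% in vehicle, 84.7% and 67.9% in C29, 47.9% and 77.7% in 5-azadC, and 76.8% and 45.6% in the combination. Its lowest libraries were one of each group with 5-azadC, and it fell by 26.15 points in the combination against vehicle (logistic q 7.88e-10).

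**Figure D5:**
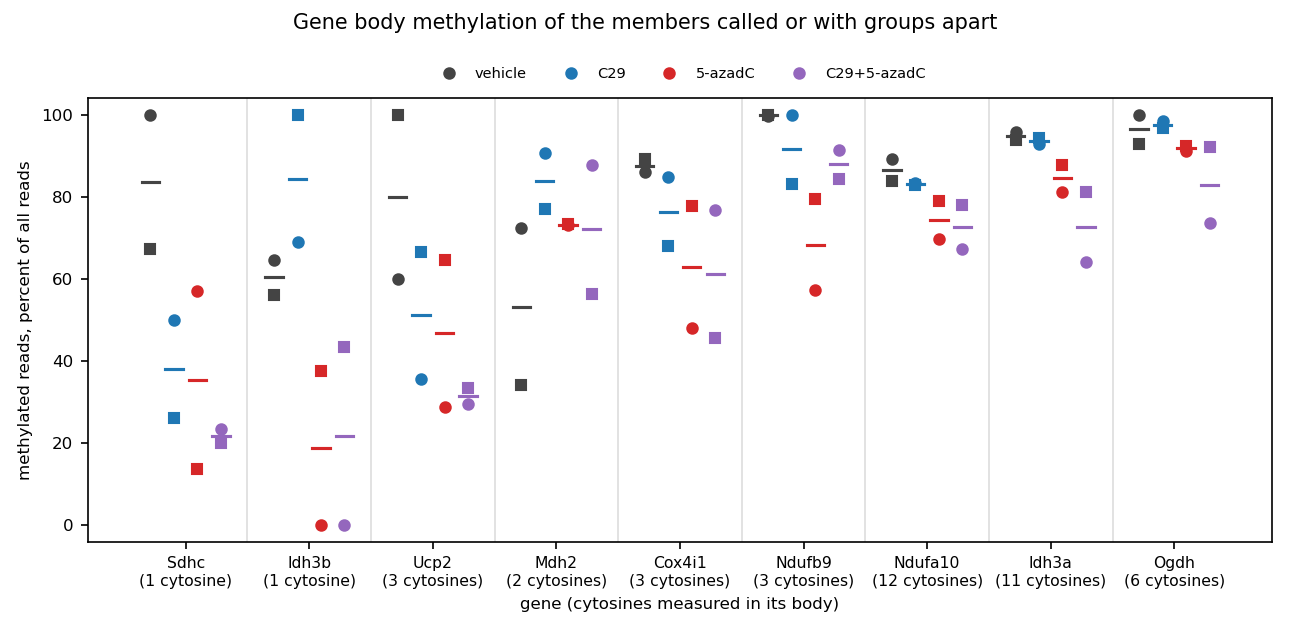
Gene body methylation (percent of reads, vertical axis) in each of the 8 libraries, as points colored by group (circles replicate 1, squares replicate 2, bars the group mean), for the members that were called in a comparison or whose 4 libraries with 5-azadC did not overlap the 4 without (horizontal axis, with the number of cytosines). Idh3b, Idh3a, Ndufa10 and Ogdh show all 4 libraries with 5-azadC below the 4 without.

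Across all 8 libraries 4 members lay lower in every library with 5-azadC than in any without (background 13.6%). The count lying higher was 0 (background 0.129%). The count lower was 7 without vehicle replicate 1 or 5-azadC replicate 1, where the share over all genes can only stay or rise too. It was 1 with at least 20 reads per cytosine. Idh3b stood at 20.2% ± 23.5 with the drug and 72.4% ± 19.1 without, Idh3a at 78.6% ± 10.1 and 94.1% ± 1.27, Ndufa10 at 73.4% ± 5.82 and 84.8% ± 2.90, and Ogdh at 87.3% ± 9.22 and 96.9% ± 3.08 (n = 4 each). Their q in the F test, adjusted over all genes, were 0.157, 0.102, 0.144 and 0.272. Ndufa10, an accessory subunit of complex I (12 CGs), read 89.1% and 83.9% in vehicle, 83.2% and 82.9% in C29, 69.6% and 78.9% in 5-azadC, and 67.3% and 77.9% in the combination. Ogdh (6 CGs), the E1 subunit of the oxoglutarate dehydrogenase complex, read 100% and 92.8%, 98.3% and 96.6%, 91.1% and 92.4%, and 73.5% and 92.2% in the same order.

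Idh3a (11 CGs) read 95.8% and 93.8% in vehicle, 92.8% and 94.2% in C29, 81.2% and 87.8% in 5-azadC, and 64.2% and 81.1% in the combination. The 4 lowest libraries were those with 5-azadC, combination replicate 1 lowest. Several of its CGs, from +10556 to +10598 on the minus strand, read the same 63.2% in 5-azadC replicate 2 and the same 7.69% in combination replicate 1, on as few as 13 reads, and so were read on the same molecules. Cpt1b, in contrast to its start, stayed at 93.2% to 99.8% in the body in all 8 libraries (9 CGs), and Sucla2 at 91.7% to 100% (5 CGs).

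In the F test over 8 libraries, 4 of 22 bodies had an unadjusted p below 0.05 for 5-azadC (18.2%, background 23.5%) and 0 for C29 (background 4.78%), and 0 members were apart by C29 (background 1.99%). Without 5-azadC replicate 2, 3 members were apart by C29, and without C29 replicate 1 or combination replicate 2, 1. The share of all genes apart can only stay or rise with a library left out, so 1.99% is no background there. No member passed an adjusted q of 0.05 for either drug. At the larger simulated spread between libraries this F test recovered 0 of 200 body shifts, so that says little if libraries varied that much. No member had an unadjusted interaction p below 0.05, beside 5.71% of all genes.

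The rest of the pathway was taken from 7 further lists of 108 genes: other complex I subunits, other subunits of complexes III and IV, ATP synthase, other TCA and pyruvate dehydrogenase genes, other fatty acid oxidation genes, other mitochondrial control genes, and glycolysis. Their promoter windows, measured in 98, lay below 5% in vehicle in 67. ATP synthase had 14 of 14 below 5% with no call, and glycolysis had 8 of 19 with a vehicle median of 7.60%. Called were 2 of 98 in C29 against vehicle, 2 in 5-azadC against vehicle and 1 in the combination against vehicle, every one lower, and 0 in the combination against 5-azadC. The backgrounds over all genes were 3.4%, 4.51%, 4.67% and 4.04% in that order. Of 47 bodies measured, 2 were called in C29 against vehicle, both higher, and 3 lower and 3 higher in the combination against 5-azadC. In 5-azadC against vehicle 7 were lower and 1 higher, and in the combination against vehicle 4 were lower. The backgrounds over all gene bodies were 5.31%, 7.15%, 9.67% and 9.01% in that order.

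Markers of cells that such a tumor could hold were checked as well. For epithelial cells the 5 of 8 genes measured had a vehicle promoter median of 6.45%, beside 74.3% for leukocytes (5 of 10), 32.9% for endothelial cells (3 of 7), 24.7% for fibroblasts (3 of 8) and 62.5% for adipocytes (3 of 5). Over the 8 libraries the list means were 5.01% to 8.17% for epithelial genes, 52.8% to 62.9% for leukocyte, 15.7% to 50.5% for endothelial, 26.5% to 43.6% for fibroblast and 39.9% to 55.8% for adipocyte genes. The endothelial mean was 23.8% and 50.5% in the vehicle libraries. Of the 19 marker promoters 1 was called higher in C29 against vehicle, 2 in the combination against 5-azadC and 3 in the combination against vehicle, beside backgrounds in either direction of 3.4%, 4.04% and 4.67%. The part of cell composition in the results was not tested.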

How the data were processed

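Genomic DNA of the tumors was bisulfite-treated and sequenced as RRBS libraries. The authors trimmed, aligned to GRCm38 (mm10) and called methylation with Trim Galore 0.4.1, Bismark 0.20.0 and methylKit 1.7.0, with FastQC 0.11.8, per the labels. The deposited file of each library gives, per cytosine of a CG dinucleotide, the coverage as a count of reads and the methylated fraction. Methylated reads were computed as coverage times fraction and rounded to whole reads. The members and all gene lists were chosen with earlier results of these data known. Cytosines with at least 10 reads in all 8 libraries were assigned to windows of 1000 bases on either side of every GENCODE M21 start site of a gene, and to the rest of the gene.

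Reads were pooled per gene and library, and groups compared by a logistic likelihood-ratio test with Benjamini-Hochberg adjustment over all genes with a value. The logistic and F tests were computed with NumPy and SciPy 1.17.1. statsmodels 0.14.6 gave the Wilson intervals and a check of the logistic fit on some genes. Calls needed q below 0.01 and 25 points. The overdispersion F test scales that test by the spread between libraries. Drug effects over all 8 libraries used the F test, with the exact permutation test, over every split of the libraries, for single values. edgeR 4.0.16, limma 3.58.1, R 4.3.3, Python 3.11.15, NumPy 2.4.6, pandas 2.3.3 and matplotlib 3.10.9 were also used.

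Named were members called in any comparison; the 8 with the highest vehicle promoter level; the 5 with the largest difference in C29 against vehicle and in the combination against 5-azadC among members with at least 5 cytosines; members apart by a drug by 5 points or more; and Cs, Cycs, Cpt1a, Pdk4, Tfam, Nrf1, Gabpa, Sirt3, Ucp2 and Sdha. Other genes, and single cytosines outside these, were named after their values were seen. Alternatives were the coverage minimum, the difference required, strands summed, other windows, other tests and leaving out each library. Each test was tested on simulated data with known shifts. There the logistic test also called unshifted genes once libraries of a group were made to vary, the overdispersion F test with 2 libraries a side missed the shifts, and edgeR's planned fit missed those in promoters. With 4 libraries a side and a simulated overdispersion of 0.005, the F test recovered 180 of 200 promoter shifts and 183 of 200 body shifts. At 0.08 it recovered 36 and 0.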

Additional observations from a re-analysis of the deposited data

How the results depend on the processing

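The order of the promoter medians depended on the processing: C29 and the combination lay above vehicle as reported, and below it with at least 5 reads, at least 20 reads or the first start alone. Among promoter windows, a minimum difference of 10 points gave 1 member call in C29 against vehicle and 3 in the combination against 5-azadC. The 3 were Acadm, Cpt1b and Ndufs7. It gave 2 calls in 5-azadC against vehicle and 1 in the combination against vehicle. These counts are not set beside the share of all genes at 10 points. By q alone, 48.99%, 47.1%, 52.5% and 50.1% of all genes passed in the same 4 comparisons. At least 5 reads per cytosine left 0 members apart by C29 and gave medians of 0.474% in vehicle, 0.397% in C29 and 0.374% in the combination. At least 20 reads left 0 apart by C29 and 0 by 5-azadC, with medians of 0.1103%, 0 and 0. Windows around the first start alone, chosen after seeing the data, left 1 apart by 5-azadC (Gabpa), with medians of 0.0882%, 0.0520% and 0.0241%. A mean over cytosines gave a vehicle median of 0.156%. Leaving out a single library gave 1 to 4 members apart by C29, a count that can only stay or rise over all genes too. Calls in C29 against vehicle, in 5-azadC against vehicle and in the combination against vehicle also changed. There a group held 1 library, so the counts are not given.

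Among gene bodies, 10 points gave 8, 8, 11 and 12 calls, which are not set beside the share of all genes at 10 points. By q alone, 50.6%, 52.1%, 70.2% and 64.3% of all bodies passed, so these counts are no result about the members. At least 5 cytosines per gene left 0 calls, as did the overdispersion F test and edgeR's quasi-likelihood test with an estimated dispersion or, chosen after seeing the data, with dispersion 0, in C29 against vehicle, in 5-azadC against vehicle and in the combination against vehicle. With dispersion 0, 1, 0, 3 and 6 bodies and 3, 3, 0 and 2 promoters had an unadjusted p under 0.05. At least 20 reads left 0, 1 (Ndufb9) and 0 calls in those 3 comparisons and 1 member apart by 5-azadC, with medians of 92.001%, 91.6%, 76.0% and 78.3% in vehicle, C29, 5-azadC and the combination. At least 5 reads gave 2 calls in the combination against vehicle and a combination median of 71.4%. Summing both strands of a CG gave 1 call in C29 against vehicle and 2 in the combination against vehicle. A mean over cytosines gave medians of 88.2% in C29 and 76.2% in the combination. Leaving out a single library changed the calls in C29 against vehicle, in the combination against 5-azadC and in 5-azadC against vehicle. There a group held 1 library, so the counts are not given. It gave 4 to 7 members apart by 5-azadC and 0 to 3 apart by C29. The cause was not tested.

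Deviations from the group means of same-numbered libraries correlated at -0.0241 to 0.0347 across genes, so the replicate numbers were not taken as pairs. With the number as a replicate block the calls stayed at 0 in promoters and at 3, 0, 3 and 4 in bodies. The F test over 8 libraries was also run with the block and the other drug as terms. There 4 bodies (Cox5a, Idh2, Sdhc and Tfam) had an unadjusted p below 0.05 for C29, beside 0 without. This count is not set beside the share over all genes, and Cox5a was methylated only in C29 replicate 1, at 17.3%. Bodies rest on few cytosines, with as few as 10 reads each in some libraries.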

Other observations

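Gene bodies of lists outside the members also differed in level. In vehicle the body median was 67.7% for glycolysis (12 of 20 genes measured), 86.8% for ATP synthase (4 of 15), 86.7% for other fatty acid oxidation genes (8 of 13) and 93.5% for other complex I subunits (7 of 18). Bodies of epithelial markers had a median of 53.0% (7 of 8 measured), beside 71.9% for leukocyte (6 of 10) and 84.1% for fibroblast markers (5 of 8). In 5-azadC against vehicle the median difference was -13.4 points for epithelial bodies, -12.6 for fibroblast, -11.5 for endothelial (3 of 7) and -9.45 for leukocyte bodies, and 2.15 for adipocyte bodies (5 of 5). These medians are descriptions with no test.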
